A study of Mus musculus with 6 samples.

Results

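The RAB GTPases are the largest branch of the RAS superfamily of small GTP-binding proteins. They comprised 59 of the 27179 genes measured in B16F10, an established line of mouse melanoma cells. Members were the genes whose symbol is Rab followed by a number and at most 1 letter. Each of the 59 was also described as a member of the RAS oncogene family in the gene names that accompany the values. RAB effectors, RAB-like genes and antisense genes such as Rab10os were left out by this rule. B16F10 cells of wild-type (WT) genotype were given 0.01% olive oil (OLO, 3 libraries) or 0.01% ozonated olive oil (OZO, olive oil exposed to ozone, 3 libraries) for 6 h, and their RNA was sequenced. All 6 libraries thus came from cells that had received an oil, and all came from 1 tumour cell line in culture. The level of a gene is the authors' mean over these 6 libraries, so it has no error here, and no comparison between OZO and OLO was made. A member whose level differed between the oils enters with the mean of both.

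A RAB works as a switch. Bound to GTP it sits on the membranes of particular organelles and recruits effectors, such as motors and tethers, that move, dock or fuse the vesicles. Guanine nucleotide exchange factors (GEFs) turn it on, and GTPase activating proteins (GAPs) turn it off. In pigment cells Rab32 and Rab38 direct the delivery of melanin enzymes such as tyrosinase to the maturing melanosome, and Rab27a ties the finished melanosome to actin through melanophilin (Mlph) and myosin Va (Myo5a). Rab27a and Rab38 are the genes mutated in the ashen and chocolate coat colour mice.

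Each RAB carries cysteines at or near its C-terminal end, to which prenyl lipids, in most RABs geranylgeranyl groups, are attached so that the protein can sit on a membrane. The ends of the coding sequences are shown because this feature separates the members by sequence alone and was not used to choose them. The last 12 codons before the stop codon follow, 5′ to 3′ on the coding strand, with codons for cysteine in capitals. They are the 3 melanosome RABs, Rab29 as the close relative of Rab32 and Rab38, Rab1a and Rab7, and Rab5a for a further arrangement. Rab1a and Rab7 had the highest levels per kilobase of the longest transcript.
Rab27a: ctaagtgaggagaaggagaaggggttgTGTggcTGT
Rab32: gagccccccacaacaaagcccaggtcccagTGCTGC
Rab38: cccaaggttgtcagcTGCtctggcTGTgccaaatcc
Rab29: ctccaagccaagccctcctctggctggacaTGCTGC
Rab1a: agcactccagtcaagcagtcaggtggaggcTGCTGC
Rab7: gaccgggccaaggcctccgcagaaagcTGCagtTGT
Rab5a: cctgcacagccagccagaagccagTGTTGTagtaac
In GRCm38 the printed stretches lie within the last coding exon, at chr9:73095418-73095453 on the + strand for Rab27a, chr10:10546305-10546340 on the − strand for Rab32 and chr7:88490722-88490757 on the + strand for Rab38. Those of the others are chr1:131872542-131872577 (+) for Rab29, chr11:20224807-20224842 (+) for Rab1a, chr6:88000438-88000473 (−) for Rab7 and chr17:53506391-53506426 (+) for Rab5a. The 3 melanosome RABs thus ended in 3 different ways. Rab27a had cysteine codons at places 3 and 1 counted from the end, Rab32 at places 2 and 1, and Rab38 had a single one among the last 4 codons, at place 4.

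Levels were given as CPM, the read count of a gene scaled to a fixed library size, and, to compare genes, divided by the length of the longest annotated transcript in kilobases, on the log2 scale. The pigment cell identity of the libraries was checked with 7 marker genes, which all had at least 100 CPM, from 109 CPM for the transcription factor Sox10 to 7052 CPM for the melanin enzyme Dct. The keratinocyte gene Krt5 had no reads and Krt14 had 0.0306 CPM, the leukocyte gene Ptprc 0.0702 CPM and the endothelial gene Cdh5 0.101 CPM. Other genes used as markers of fibroblasts, immune cells and endothelium had reads, with Pdgfra at 3.28 CPM, Col1a1 at 1.7 CPM, Pecam1 at 1.21 CPM and Cd68, a lysosomal protein of macrophages, at 5.47 CPM. Per length Cd68 had 2.15 log2 CPM per kb, above the median gene with reads. The libraries had a geometric mean size, after scaling, of 19641946 reads, at which 1 CPM is 19.6 reads in a library. Depths of single libraries are unknown. In bulk RNA a higher level in each cell and more cells with the transcript cannot be told apart.

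All 59 members had reads, as did 21154 of all 27179 genes. At least 1 CPM was reached by 44 members (74.6%), against 11878 of all 27179 genes (43.7%). A level of 10 CPM or more was found for 38 members and of 100 CPM or more for 15. Of the 20115 genes with reads and a known transcript length, 8717 and 2457 reached these levels. Per length, the median member had a level of 3.44 log2 CPM per kb, against 0.69 for all 20115 genes with reads and a known transcript length. Among genes with at least 1 CPM the medians lay closer, at 4.13 for the 44 members and 3.39 for all 11682 such genes. Of the 59 members, 12 were among the top 10% of genes with reads, 26 (44.1%) among the top 25%, and 20 lay below the median gene.

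**Figure D1:**
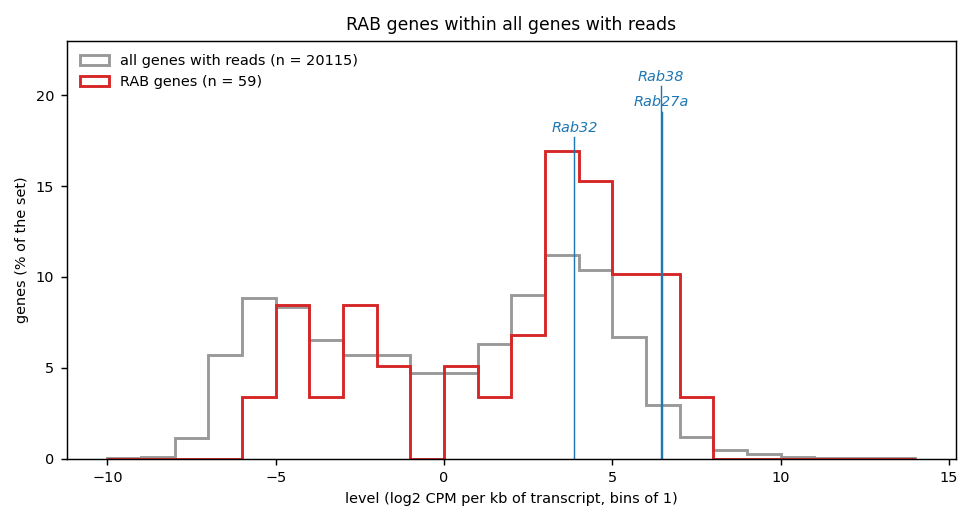
Share of genes (percent of each set) by mean level (log2 CPM per kb of transcript, bins of 1), for the 59 RAB genes in red and all 20115 genes with reads in grey. Blue lines mark Rab32 at 3.87, Rab38 at 6.44 and Rab27a at 6.46, the last pair in the upper tail of both sets.

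RAB transcripts were concentrated in few genes. Places in the order, and the highest and lowest gene of a group, refer to the longest transcript unless another length is named. The same holds for shares of the summed RAB level. These shares were computed with other lengths only for the melanosome RABs, where they moved. No other set of genes was compared in this way. The 5 highest members held 40.6% of the summed RAB level (CPM per kb) and the 10 highest held 63.8%, while the 15 members under 1 CPM together held 0.117%. Rab1a, which acts in transport from the endoplasmic reticulum (ER) to the Golgi, was first with 7.25 log2 CPM per kb (430.0 CPM). Rab7, which guides late endosomes to lysosomes, had nearly the same level of 7.24 (327 CPM). Rab14, active between the Golgi and endosomes, followed at 6.70 (321 CPM). Rab14 was first with the median and with the shortest transcript, and Rab7 was first with all exons joined, where Rab14 took place 13. Rab27a and Rab38 took places 4 and 5. With the median transcript they took places 8 and 6, with the shortest 12 and 5, and with all exons joined 5 and 3.

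Rab27a lies at chr9:73044854-73097629 on the + strand (GRCm38). Its mean level was 6.46 log2 CPM per kb, or 279 CPM, from a geometric mean of 5484 reads in a library. It took place 4 among the RABs and was higher than 96.8% of all genes with reads. Its exons overlap the annotated gene Gm27186 on the same strand, with which it shared 1.73% of its stretches of 100 bases. Reads of that small part could come from either gene, and how they were counted is not known.

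Rab38, at chr7:88430273-88491572 on the + strand, had a level of 6.44 log2 CPM per kb (137 CPM, 2695 reads in a library). It took place 5 among the RABs, above 96.7% of genes. In CPM Rab27a was higher than Rab38, and its longest transcript is the longer of the pair. Per length the difference, Rab27a minus Rab38, was 0.02 on the log2 scale. With each of the 3 other lengths Rab38 was the higher, and the difference went down to -1.34 with the shortest transcript.

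Rab32, the closest relative of Rab38, lies at chr10:10545002-10558265 on the − strand. Its level was lower, at 3.87 log2 CPM per kb (31.4 CPM, 615 reads in a library), place 26 among the RABs and above 76.4% of genes. Rab38 was 5.96-fold above Rab32 per length, and between 5.96- and 16.2-fold over 4 ways of taking the length. Rab27a was 6.04-fold above Rab32, with a range of 5.37- to 6.42-fold. Over the 4 lengths Rab32 took places 25 to 31, below both other melanosome RABs with each.

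The 3 melanosome RABs together held 13.2% of the summed RAB level, of which 6.14% was Rab27a, 6.06% Rab38 and 1.02% Rab32. This share was 10.5% with the median annotated transcript, 7.67% with the shortest and 15.5% with all exons joined. Their median was 6.44 log2 CPM per kb, against 3.43 for the other 56 RABs and 4.04 for the 41 of those with at least 1 CPM. With 3 genes and no spread between libraries, the difference of 3.01 in medians is a description. RABs of general traffic had levels as high, as the values of Rab1a, Rab7 and Rab14 show.

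The relatives of the melanosome RABs by sequence were at lower levels. Rab27b, which serves secretion in many gland and blood cells, shares 67.7% of aligned coding bases with Rab27a. It had -4.09 log2 CPM per kb (0.404 CPM, 7.43 reads in a library), so Rab27a was 1505-fold higher, or 620- to 1905-fold over the lengths tried. Rab29, known for its part at the trans-Golgi and lysosome with the kinase LRRK2, shares 61.8% of coding bases with Rab38 and 58.6% with Rab32. Its level of 2.91 (9.22 CPM) was below Rab32 by 1.94-fold and below Rab38 by 11.6-fold. The order Rab38, Rab32, Rab29 was the same with each of the 4 lengths. Rab32 and Rab38 themselves shared 64.2% of coding bases, against a median of 51.8% over 1653 pairs of 58 members.

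**Figure D2:**
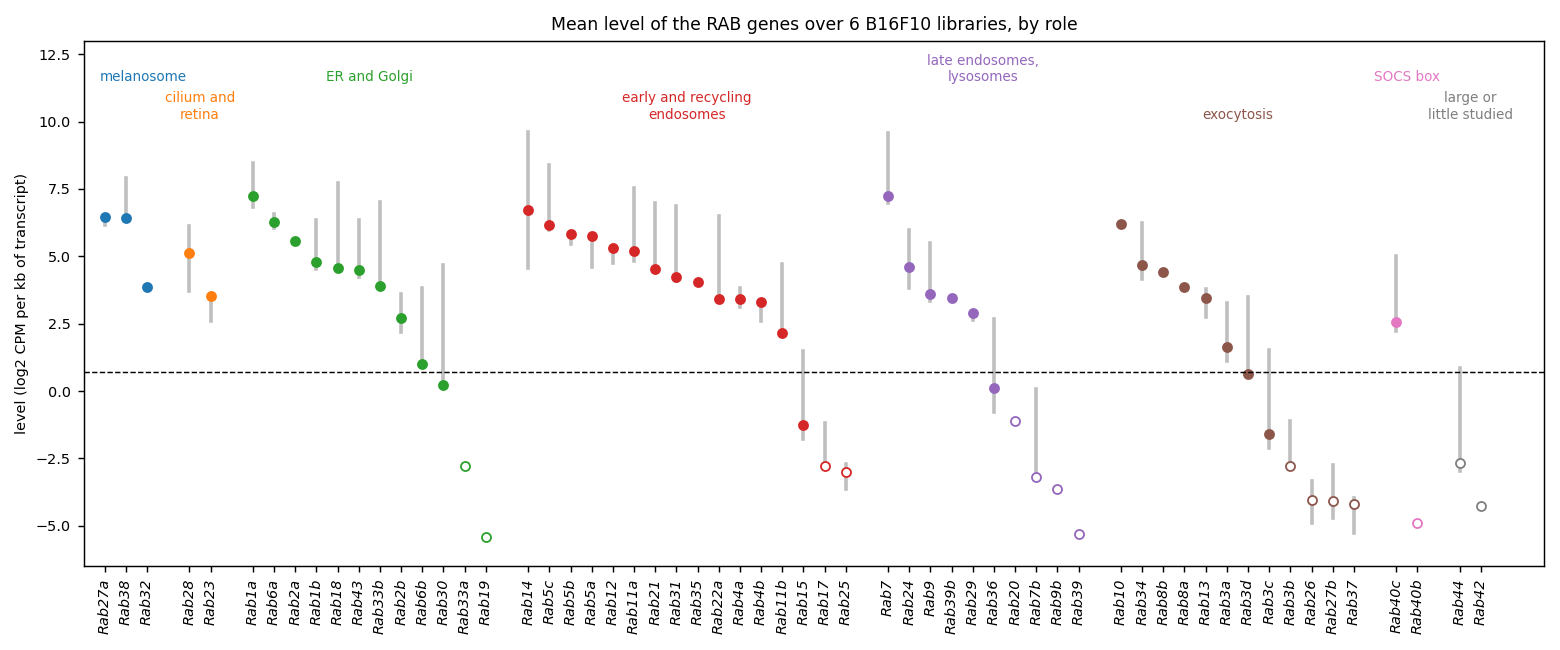
Mean level of each of the 59 RAB genes (log2 CPM per kb of transcript), grouped by role and ordered by level within each role. Points use the longest transcript (filled, at least 1 CPM; open, under 1 CPM), grey bars span the 4 ways of taking the length and are not errors between libraries, and the dashed line is the median of all genes with reads, 0.69.

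The 12 RABs of ER and Golgi traffic (Rab1a, Rab1b, Rab2a, Rab2b, Rab6a, Rab6b, Rab18, Rab19, Rab30, Rab33a, Rab33b and Rab43) had a median of 4.19 log2 CPM per kb and held 26.2% of the summed RAB level. At least 1 CPM was found for 10 of them. They spanned the whole family, from Rab1a at 7.25 down to Rab19, the lowest RAB of all, at -5.42. Rab19 had between 2 and 4 reads over all 6 libraries, so its level mainly reflects the 0.5 reads that the voom transformation adds to each count.

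The 16 RABs of early and recycling endosomes (Rab4a, Rab4b, Rab5a, Rab5b, Rab5c, Rab11a, Rab11b, Rab12, Rab14, Rab15, Rab17, Rab21, Rab22a, Rab25, Rab31 and Rab35) held 31.9% of the summed level, with a median of 4.13. Of these, 14 had at least 1 CPM. The highest was Rab14 at 6.70. The lowest was Rab25, a relative of Rab11a that is typical of epithelia, at -2.99 log2 CPM per kb (0.136 CPM). Rab5a, Rab5b and Rab5c, which organise early endosomes and their fusion, had 5.75, 5.84 and 6.15.

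The 10 RABs of late endosomes, lysosomes and autophagy (Rab7, Rab7b, Rab9, Rab9b, Rab20, Rab24, Rab29, Rab36, Rab39 and Rab39b) had a median of 1.52 and held 14.5% of the summed level. Rab7 alone, at 7.24, accounted for 10.6%. At least 1 CPM was reached by 6 of the 10. Rab39 was the lowest at -5.30 log2 CPM per kb, from at least 7 and at most 337 reads over the 6 libraries.

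The 12 RABs of exocytosis and transport to the plasma membrane (Rab3a, Rab3b, Rab3c, Rab3d, Rab8a, Rab8b, Rab10, Rab13, Rab26, Rab27b, Rab34 and Rab37) had a median of 1.15, and 8 had at least 1 CPM. They held 10.5% of the summed level. The highest was Rab10, which carries vesicles such as those with the glucose transporter GLUT4 to the cell surface, at 6.20 (257 CPM). The lowest was Rab37, at -4.20 (0.14 CPM).

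In the remaining groups Rab28, linked to cilia and to cone photoreceptors, had 5.14 log2 CPM per kb (60.0 CPM). Rab23, a ciliary regulator of hedgehog signalling, had 3.54. Of the RABs with a SOCS box, which joins them to a ubiquitin ligase, Rab40c had 2.55 and Rab40b -4.89 (at least 6 and at most 112 reads in all libraries). The large Rab44 had -2.66 and the little studied Rab42 -4.25, the latter from 3 to 7 reads in all. The 5 lowest RABs were thus Rab19, Rab39, Rab40b, Rab42 and Rab37.

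The order of neighbouring members was not firm. Of 43 neighbouring pairs among members with at least 1 CPM, 40 were less than 0.5 apart on the log2 scale and 25 turned with another way of taking the length. The level of 36 members spanned over 1 on the log2 scale across the lengths, with a median span of 1.66. Of the 10 highest members, 8 were also among the 10 highest with the median transcript, 5 with the shortest and 8 with all exons joined.

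Many RABs come as closely related genes that share a number and differ by a letter. There were 14 such numbers with 2 or more members, 31 members in all. In 10 of the 14 the highest gene exceeded the next by more than 4-fold, and in 8 it did so with each of the 4 lengths. In 13 the same gene was highest with each length. Rab7 exceeded Rab7b by 1371-fold (431- to 1371-fold over the lengths) and Rab9 exceeded Rab9b by 152-fold (125- to 559-fold). The ratio was 38.5-fold for Rab6a over Rab6b (6.76- to 38.5-fold) and 8.29-fold for Rab11a over Rab11b (6.49- to 8.87-fold). It was 7.23-fold for Rab2a over Rab2b (3.91- to 10.4-fold) and 5.51-fold for Rab1a over Rab1b (2.44- to 5.51-fold). The size of the gap, though not its direction, thus changed with the length for these pairs.

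In 4 of the 14 numbers the highest gene and the second were within 2-fold. These were Rab4 (1.08-fold, Rab4a over Rab4b), Rab5 (1.24-fold, Rab5c over Rab5b), Rab8 (1.46-fold, Rab8b over Rab8a) and Rab3 (1.99-fold, Rab3a over Rab3d). Of the stretches of 100 bases in Rab4b, 76.5% also occur in Gm21983, so the ratio of Rab4a to Rab4b is uncertain. Rab3, Rab4 and Rab8 stayed within 2-fold with each length, the order of Rab3a and Rab3d turning with the shortest. Rab5 did not, since Rab5c exceeded the next Rab5 gene by 5.91-fold with the shortest transcript. In 7 of the 14 every gene had at least 1 CPM.

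**Figure D3:**
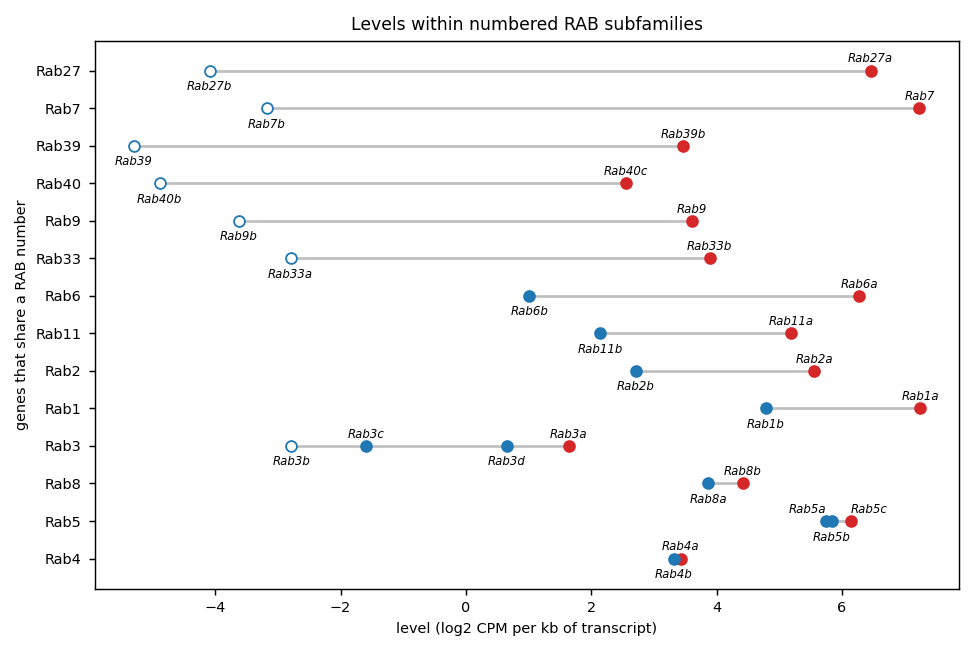
Mean level (log2 CPM per kb of transcript) of genes that share a RAB number, 1 row for each of the 14 numbers, ordered by the gap between the highest gene (red) and the second. Open circles are genes under 1 CPM, and the Rab27 row spans from -4.09 for Rab27b to 6.46 for Rab27a, the widest gap of the 14 with the longest transcript.

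No stretch of 100 bases in the longest transcript of a member occurred in a transcript of another member, so reads of that length from these transcripts could not be placed on another RAB without mismatches. Exons outside the longest transcript were not searched. Sharing with other genes was found for 11 members and exceeded 5% of stretches in 5. These were Rab43 (90.3%, with Gm45140), Rab4b (with Gm21983, as given above), Rab7 (11.0%, with its pseudogene Rab7-ps1), Rab5b (8.18%, with Gm13991) and Rab11b (7.57%, with Rab11b-ps2). Exons of 20 members overlapped another annotated gene, 6 on the same strand and 15 on the opposite one. The libraries were directional, but whether the counting used strand is not given in the sources used here, so the levels of these 20 members are less certain.

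Over all members, 44 had 2 cysteine codons among the last 4 and 15 had 1. The commonest arrangement was that of Rab27a and Rab7, at places 3 and 1, in 20 members. The arrangement of Rab32, Rab29 and Rab1a, at places 2 and 1, was found in 15. In another 15, as in Rab38, only place 4 of the last 4 codons was cysteine. Codons further from the end were not counted. Rab11a, Rab11b, Rab21, Rab25, Rab30 and Rab37 have a further cysteine codon directly before place 4, so this group mixes single and paired cysteines. In 6 members, Rab5a among them, the codons stood at places 4 and 3, and in 3 members at places 3 and 2. Median levels by arrangement were 1.32 log2 CPM per kb for places 3 and 1, 3.87 for places 2 and 1, 3.54 for place 4, 5.18 for places 4 and 3 and -1.10 for places 3 and 2. Each of the first 3 arrangements held members from under -3 to over 6 on this scale, so the ranges overlapped widely.

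The machinery that attaches the lipids and delivers RABs to membranes was present, with all 6 genes listed here at 1 CPM or more and a median of 3.42 log2 CPM per kb. Gdi2, an inhibitor that keeps RABs soluble and recycles them, was highest at 6.84. The catalytic subunit of the RAB geranylgeranyl transferase, Rabggtb, had 5.58, and its partner subunit Rabggta 0.49, the lowest of the list. The escort proteins Chm and Chml, which present RABs to the transferase, had 2.93 and 1.08, and Rabif, a RAB-binding chaperone, had 3.92. Exons of Chml overlap Opn3 and those of Rabggtb overlap small nucleolar RNA genes on the same strand.

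The 7 genes listed as partners of the melanosome RABs all had at least 1 CPM, with a median of 3.58 log2 CPM per kb. The motor Myo5a was highest at 6.67 (1190 CPM) and its link to Rab27a, Mlph, had 5.11. Sytl2, another effector of Rab27a, had 4.26. The other Sytl genes were counted with the RAB effectors below. Of these, Sytl1 (0.222 CPM), Sytl3 (0.0628 CPM) and Sytl5 (0.0367 CPM) were under 1 CPM, and Sytl4 had 5.24 CPM. That all 7 listed partners were present thus depends on how the lists were divided. On the side of Rab32 and Rab38, their effector Ankrd27 (VARP) had 3.58, the GAP Sgsm2 3.09, and Hps4 and Hps1, the subunits of their exchange factor BLOC-3, had 2.51 and 2.05. Myo5a and Mlph were the highest of the 7 with each of the 4 lengths, while Ankrd27 exceeded Sytl2 with every length but the longest transcript.

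Other regulators were broadly present. At least 1 CPM was found for 26 of 28 GEFs (median 2.97 log2 CPM per kb, from -5.31 to 5.97), for 30 of 32 GAPs (median 3.15, from -4.24 to 5.07) and for 15 of 21 effectors (median 1.22, from -5.97 to 5.05). Only the effectors had a larger share under 1 CPM than the RABs themselves, of which 15 of 59 were under 1 CPM. All 5 lists of regulators and partners had a median above 0.69, the median of all genes with reads. Among genes with at least 1 CPM the median of all genes was 3.39. The medians of GEFs (3.04), GAPs (3.31) and effectors (2.89) lay below it. Those of the melanosome partners (3.58) and the prenylation list (3.42) lay slightly above it.

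**Figure D4:**
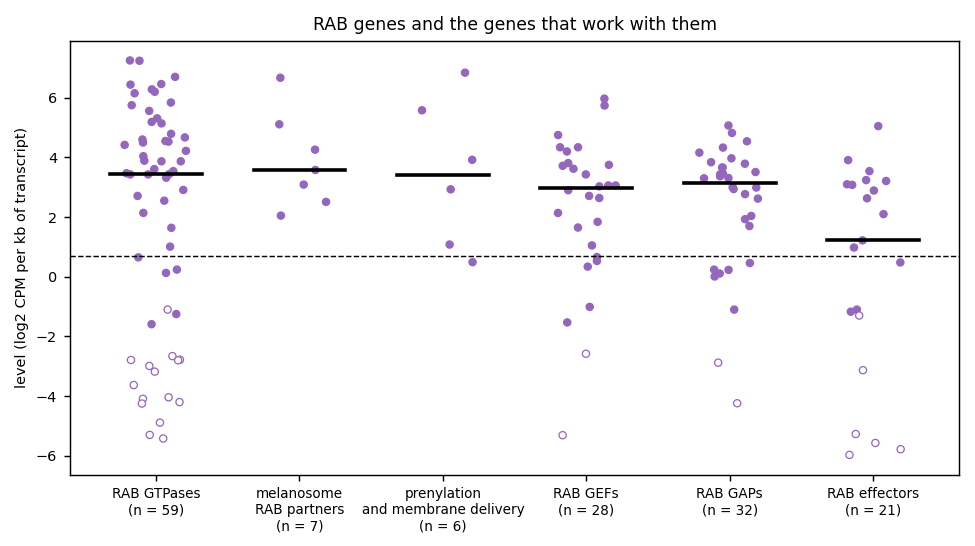
Mean level (log2 CPM per kb of transcript) of each RAB gene and of each gene in 5 lists of regulators and partners, with the horizontal spread of points for legibility only. Filled points have at least 1 CPM, black bars are medians (3.44 for the RABs, 3.58, 3.42, 2.97, 3.15 and 1.22 for the lists from left to right), and the dashed line is the median of all genes with reads, 0.69.

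Promoter sequences of RefSeq (GRCm38.p6, 250 bases before to 50 after the start) were at hand for 48 of the 59 members and were searched on both strands for short motifs, as a description of sequence. GGGCGG, the GC box, was present in 36 members (75.0%), against 38.2% of 27025 genes and 70.2% of genes with at least 1 CPM. CCAAT was present in 26 (54.2%), against 41.1% of all genes and 43.6% of genes with at least 1 CPM. The E-boxes CATGTG and CACGTG, letters that MITF can bind, were present in 5 members (10.4%) and 6 members (12.5%), against 15.9% and 8.09% of all genes and 10.1% and 12.1% of genes with at least 1 CPM. Their longer forms TCATGTG and TCACGTG were present in 3 members (6.25%) and 4 members (8.33%), against 4.31% and 4.29% of all genes and 2.64% and 7.35% of genes with at least 1 CPM. Of the melanosome RABs, Rab27a has 2 annotated starts, of which the upstream window held 1 GGGCGG and the downstream window held 1 CACGTG and 2 CCAAT, while the Rab32 window held no GC box, no CCAAT and neither E-box. Rab38 was among the 11 members not searched. TATAAA was present in 4 members (8.33%, against 15.7% of all genes and 8.34% of genes with at least 1 CPM) and TGACNNNGC, the core letters of the antioxidant response element, in 9 (18.8%, against 14.0% and 17.0%). The median GC content was 63.5% in members, 62.3% in genes with at least 1 CPM and 53.3% in all genes.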

How the data were processed

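RNA from B16F10 cells given OLO or OZO for 6 h was sequenced in 3 libraries per group. The labels do not say whether these were separate cultures, and the study describes its B16F10 expression data as coming from independent experiments. Per the labels and the study's methods, the authors aligned reads to mm10 with HISAT2 2.1.0, assembled transcripts with StringTie 1.3.4d, and used featureCounts 2.1.1 and limma 3.58.1 (voom). The deposited table holds, for 27179 genes, the authors' mean log2 CPM over all 6 libraries, together with columns of their own comparison of OZO with OLO (fold change, moderated statistic, p-values and log odds). The comparison columns were not used. The test planned for values of single libraries could therefore not be run.

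Genes without reads share the lowest mean (0.0255 CPM), which through voom's added 0.5 reads gives the mean scaled library size. For low genes the fewest and most reads over 6 libraries were found from the same formula. Levels per kb are mean log2 CPM less log2 of the longest transcript in GENCODE M21 (GRCm38, the same assembly as mm10), in which 25321 genes and all 59 members were found. Lengths of the median and shortest transcript and of all exons joined were alternatives, the last chosen after seeing the data. StringTie and counting may have used another annotation. Coding sequences under 1500 bases (58 members) were aligned in pairs. Calculations were tested on simulated data. Named genes were the melanosome RABs with Rab27b and Rab29, the highest and lowest member of each role group, the 5 highest and 5 lowest members, members without reads, and the partner and prenylation lists, of which 1 gene is not reported here and was left out of its list. Genes named for shared numbers, overlaps or sequence were chosen after their values were seen. Members and lists were chosen with earlier results of these data known. Computations ran in Python 3.11.15 with Biopython 1.88, pandas 2.3.3, numpy 2.4.6 and scipy 1.17.1, and plots were drawn with matplotlib 3.10.9.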

Additional observations from a re-analysis of the deposited data

How the results depend on the processing

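The median RAB level of 3.44 log2 CPM per kb was 3.61 with the median annotated transcript, 3.87 with the shortest, 3.12 with all exons joined (added after seeing the data) and 4.75 log2 CPM without division by length. It was 3.43 without members whose exons overlap another gene. The melanosome RABs exceeded the other RABs by 3.01 in medians, by 2.92, 2.70 and 3.47 with these lengths in the same order, by 2.90 without length and by 2.40 against other RABs with at least 1 CPM, so the direction was the same in each. Of 59 members with reads, 46 had at least 10 reads in a library and 44 at least 1 CPM. With members at 1 CPM or more only, the medians were 4.53 for ER and Golgi, 4.37 for early and recycling endosomes, 3.54 for late endosomes, 3.66 for exocytosis and 2.55 for the SOCS box RABs, and 3.04, 3.31 and 2.89 for GEFs, GAPs and effectors. Both the late endosomal and the exocytic group stayed below ER and Golgi and early and recycling endosomes. Ratios within 14 RAB numbers were also recomputed with the other lengths, which was added after seeing the data. The large or little studied RABs had no member at 1 CPM and so no such value. On the gene strand only, CCAAT was found in 14 members (29.2%, against 23.7% of all genes), GGGCGG in 26 (54.2%, against 25.6%) and CATGTG in 5 (10.4%, against 8.83%), so members lay above all genes for CATGTG on the gene strand and below them on both strands.

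No paired analysis was possible because each gene enters as 1 mean over all 6 libraries. For the same reason the alternatives planned for OZO against OLO (DESeq2, another pseudocount, DESeq2 size factors, no filter on low counts, the replicate block and leaving out each replicate) were not run. Levels of members with few reads depend on the reads that voom adds.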
